A study of Mus musculus with 24 samples.

Results

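The genes described here encode enzymes that write or erase acetyl and methyl groups on histones, other proteins and DNA. They were found by symbol: a probe row was a member if its annotated symbol began with Hdac, Sirt, Kdm, Jmjd, Setd, Smyd, Suv, Ehmt, Ezh, Prmt, Dnmt, Tet or Kat followed by a digit, leaving out Kdm5c, Kdm5d and Kdm6a. This gave 83 of 26423 probe rows and 69 of 17742 genes. By family there were 10 Hdac, 7 Sirt, 3 Kat, 13 Kdm, 6 Jmjd, 8 Setd, 4 Suv, 1 Ehmt, 2 Ezh, 8 Prmt, 4 Dnmt and 3 Tet genes, and 0 rows carried a Smyd symbol in the annotation used here. Families follow the annotated symbols, and names are current ones, so that Kmt5a (annotated as Setd8) counts with Setd, Kmt5b and Kmt5c (Suv420h1 and Suv420h2) with Suv, Kdm8 (Jmjd5) with Jmjd, and Prmt9 (Prmt10) with Prmt. Kdm7a and Kat14, which the annotation lists as Jhdm1d and Csrp2bp, fall outside the rule.

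The muscle was the tibialis anterior, a fast muscle of the lower leg, from mice aged 6 months on a C57BL6/J;129S1/SvImJ background. The 4 control animals were Myf6 cre/+; Hira flox/+ and the 4 knockout animals Myf6 cre/+; Hira flox/-. Hira encodes a chaperone that deposits histone H3.3 independently of DNA replication, and the series asks what its loss from muscle fibres does to the transcripts. All 8 animals carried Cre at the Myf6 locus, which drives recombination in differentiating fibres, so no group without Cre is described here. By genotype, control fibres kept 1 intact Hira copy, and the null copy of the knockout was present in every cell of the animal. RNA of each animal was hybridised to 3 arrays, and the mean of their log2 intensities is the value of that animal.

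Histone deacetylases and sirtuins remove acyl groups from lysines, the sirtuins with NAD as a co-substrate, and Kat enzymes add them. Kdm and Jmjd proteins include the lysine demethylases, most of which use iron and 2-oxoglutarate, while Setd, Suv, Ehmt and Ezh proteins include the lysine methyltransferases and Prmt proteins methylate arginines. Dnmt enzymes methylate cytosines in DNA, and Tet enzymes oxidise the methyl group. In skeletal muscle, class IIa deacetylases are known for restraining the transcription factor MEF2, and EZH2 for silencing muscle genes in precursor cells.

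Across arrays the deposited intensities shared a median of 626, and a gene was treated as dim in a group where its mean was at or below 125. Over the members, the median SD of log2 values was 0.15 among hybridisations of the same animal and 0.17 among animals of a group. Markers of skeletal fibres were bright, with 8 of 12 listed genes measured and a summed intensity of 2530000 to 3300000 in controls and 2100000 to 3100000 in knockouts. The Hira probe gave 8.85, 9.11, 8.92 and 8.99 in control animals 1 to 4 and 8.63, 9.30, 8.52 and 8.83 in knockout animals 1 to 4. Knockout animal 2 lay above every control and the other knockouts below every control, and the difference was -0.15 (95% interval -0.51 to 0.22; limma, adjusted p = 0.623). The sources used here do not say where that probe lies relative to the deleted part, and it does not check the genotypes.

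In knockout muscle 4 of the 69 members rose and 3 fell at a Benjamini-Hochberg adjusted p under 0.05 (limma, 4 against 4 animals, adjusted over all 17742 genes). The DNA methyltransferase Dnmt3a, the demethylases Kdm6b and Kdm3b, and Jmjd8 were higher, and the mitochondrial deacylase Sirt3, the deacetylase Hdac10 and the methyltransferase Ezh2 were lower. Their changes were of 1.37-fold to 1.69-fold. These 7 are 10.1% of the members, beside 9.28% of all genes tested (4.28% higher and 5.01% lower), so in this fit the share of members that changed was near that of genes in general. By looser measures, 20 members (29.0%) had an unadjusted p under 0.05 beside 24% of all genes, and in 16 members (23.2%) the groups did not overlap, beside 17.5%. The median difference was -0.02 (log2) over the members and -0.07 over all genes, and the median absolute difference was 0.19 in both. The split of directions moved with the normalization, with 6 members higher and 8 lower after quantile normalization (20.3% of members beside 14.5% of genes), and 4 higher and 7 lower with a higher floor on low intensities (15.9% beside 10.1%). The 7 members that changed passed under both.

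**Figure D1:**
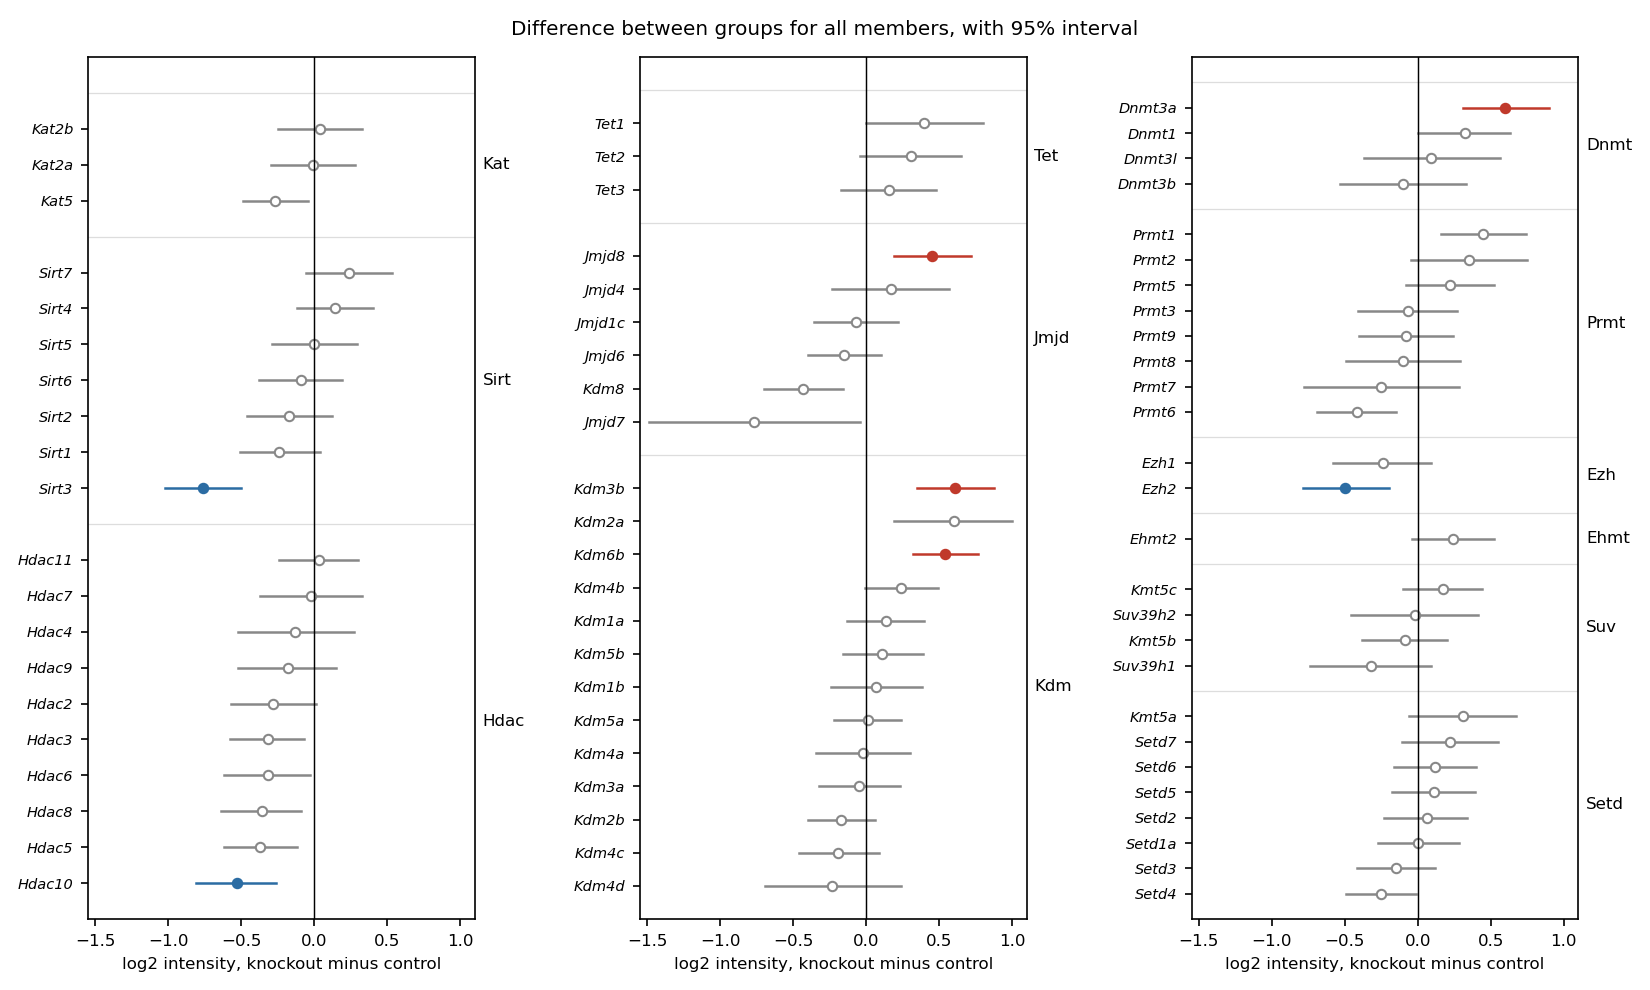
Difference in log2 intensity (knockout minus control, horizontal axis) of all 69 members by family, with 95% intervals from limma on 4 against 4 animals. Filled points passed the test (red higher, blue lower in knockout muscle) and open points did not. Of the Hdac genes 9 of 10 lie left of 0, where 10588 of all 17742 genes were negative. Kdm3b, Kdm6b, Jmjd8 and Dnmt3a are the 4 filled red points.

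Promoter windows are shown for the members that changed, because they show what kind of start each gene has. The RefSeq table used (GRCm38.p6) holds windows for 62 of the 69 members, and for 4 of these 7: Sirt3, Ezh2, Dnmt3a and Jmjd8. Hdac10, Kdm3b and Kdm6b are named only. Each window runs from 250 bases before to 50 bases after the annotated start, and is written 5′ to 3′ on the strand of the gene. Capitals mark matches, on either strand, to the ETS word CCGGAAGT, the CCAAT word CCAAT, the GC box GGGCGG, the ERR word AAGGTCA or the E2F words TTTGGCGC, TTTCCCGC, TTTGCCGC and TTTCGCGC.
Sirt3, chr7:140882260-140882559, minus strand: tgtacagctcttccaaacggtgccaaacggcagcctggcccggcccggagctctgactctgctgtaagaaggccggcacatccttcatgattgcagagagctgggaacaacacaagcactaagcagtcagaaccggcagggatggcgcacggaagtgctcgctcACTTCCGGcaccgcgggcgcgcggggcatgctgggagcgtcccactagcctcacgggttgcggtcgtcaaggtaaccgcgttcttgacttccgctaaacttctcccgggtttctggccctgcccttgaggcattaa
Ezh2, chr6:47594981-47595280, minus strand: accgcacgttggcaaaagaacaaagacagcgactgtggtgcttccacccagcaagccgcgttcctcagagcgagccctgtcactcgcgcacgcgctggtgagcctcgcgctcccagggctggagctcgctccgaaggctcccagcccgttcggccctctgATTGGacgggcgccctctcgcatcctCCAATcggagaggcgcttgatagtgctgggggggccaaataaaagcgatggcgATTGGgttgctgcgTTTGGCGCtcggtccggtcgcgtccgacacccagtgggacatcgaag
Dnmt3a, chr12:3806730-3807029, plus strand: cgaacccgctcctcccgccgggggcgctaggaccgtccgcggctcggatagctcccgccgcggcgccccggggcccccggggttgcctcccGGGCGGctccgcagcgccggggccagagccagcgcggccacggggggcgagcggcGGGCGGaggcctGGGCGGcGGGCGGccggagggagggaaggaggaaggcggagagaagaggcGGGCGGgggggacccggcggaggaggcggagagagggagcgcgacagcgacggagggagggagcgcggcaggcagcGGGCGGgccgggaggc
Jmjd8, chr17:25828793-25829092, plus strand: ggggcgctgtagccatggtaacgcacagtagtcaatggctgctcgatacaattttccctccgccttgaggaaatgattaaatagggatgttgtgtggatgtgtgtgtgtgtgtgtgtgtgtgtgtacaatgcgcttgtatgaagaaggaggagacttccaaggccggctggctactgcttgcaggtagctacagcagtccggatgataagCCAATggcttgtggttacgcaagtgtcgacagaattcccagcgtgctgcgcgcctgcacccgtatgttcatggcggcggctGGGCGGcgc
Sirt3 has 2 annotated starts. The window printed, whose start lies head to head with the neighbouring gene Psmd13, holds the ETS word once (3.89% of all 32851 windows hold it), and the other holds 4 GC boxes, 1 CCAAT word and no ETS word. The Ezh2 window holds 1 E2F word (2.26% of all windows) and 3 CCAAT words (37.4%). The Dnmt3a window, 1 of 3 for that gene, holds 6 GC boxes (35.7% hold at least 1), and the Jmjd8 window holds 1 GC box and 1 CCAAT word. The ERR word, found in 4.72% of all windows, is in none of these 4. The windows hold 23, 31, 46 and 17 CpG dinucleotides in the order printed, where the median is 7.0 over all windows and 21.5 over the 90 windows of members. A match is a description of letters, not of a bound site.

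Among the deacylases, Sirt3 fell most. It encodes the main lysine deacetylase of the mitochondrial matrix, so its known substrates are largely metabolic enzymes and not histones. Its log2 intensity was 14.00, 14.14, 13.85 and 13.93 in control animals 1 to 4 and 13.34, 13.12, 13.09 and 13.33 in knockout animals 1 to 4. All knockouts lay below all controls, with a gap between the groups wider than the range within either. The difference was -0.76 ± 0.12 (SE), 1.69-fold lower, at an adjusted p of 0.00272 (limma). It was -0.84 between animals 1 and 2 of each group and -0.68 between animals 3 and 4, and every fit without 1 animal kept the call. Psmd13, a proteasome gene that starts head to head with Sirt3 so that their windows share 184 bases on opposite strands, differed by 0.11 ± 0.13 (adjusted p = 0.65).

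The other 6 sirtuins did not pass the test. Sirt4 and Sirt5, also mitochondrial, differed by 0.14 ± 0.12 and by less than 0.01 (95% interval -0.29 to 0.29). Sirt1, the nuclear deacetylase most studied in metabolism, ranged from 10.21 to 10.60 in controls and 10.05 to 10.34 in knockouts, and the groups overlapped (-0.24, 95% interval -0.51 to 0.04). Sirt2, Sirt6 and Sirt7 differed by -0.17, -0.09 and 0.24, and the 2 dimmer rows of Sirt6 gave 0.34 and 0.08. The Sirt family as a whole had a median of -0.09. Of the list of NAD supply and use, 15 of 19 genes were measured, and 0 rose and 2 fell: Parp2, a DNA-damage enzyme that consumes NAD, by 0.92 (adjusted p = 0.00268), and Nmnat1, which makes nuclear NAD, by 0.48 (adjusted p = 0.0221; both limma, log2). Those 2 are 13.3% of the genes measured, beside 9.28% of all genes that passed (5.01% as lower). The median of that list was -0.23. Nampt, which sets the pace of NAD salvage, gave -0.39 (adjusted p = 0.12).

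Hdac10 was the deacetylase of the Hdac family that fell. It is a class IIb enzyme best known as a polyamine deacetylase of the cytoplasm. Control animals gave 11.22, 11.16, 10.80 and 11.03, and knockout animals 10.68, 10.49, 10.41 and 10.52. The groups did not overlap, and control animal 3 and knockout animal 1 came closest to each other. The difference was -0.53 ± 0.13 (SE), 1.45-fold lower (limma, adjusted p = 0.0237), and the call was lost in 5 of the 8 fits without 1 animal (without control animal 1 or 4, or knockout animal 2, 3 or 4; adjusted p 0.0507 to 0.0776).

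Of the other Hdac genes, 8 of 9 also gave negative differences, without passing the test. Over all genes 10588 of 17742 differences were negative. The median of the 10 was -0.30 (log2), beside -0.07 over all genes. An unadjusted p under 0.05 (limma) was found in 5, all lower, beside 24% of all genes in either direction. In 3 the groups did not overlap, beside 17.5% of all genes. Of class I, Hdac2 and Hdac3, catalytic subunits of nuclear co-repressor complexes, gave -0.28 and -0.32, and Hdac8 gave -0.36. Hdac1, also of class I, was not among the 10 genes found by symbol. Class IIa, the group that binds MEF2, gave -0.37 for Hdac5 (adjusted p = 0.0643), -0.18 for Hdac9, -0.13 for Hdac4 and -0.02 for Hdac7. Hdac6, the tubulin deacetylase and the other class IIb member, gave -0.32, and Hdac11, of class IV, 0.03. After quantile normalization or cyclic loess the family median was -0.25 and -0.24, with 8 of 10 negative, and 3 and 2 genes passed the test. Over all genes 9370 and 8942 of 17742 were then negative, and 14.5% and 13.9% passed.

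The Hdac values also differed among the controls, as did those of other families. In 9 of 10 Hdac genes control animals 1 and 2, which carry one series of animal numbers in their titles, both lay above control animals 3 and 4, which carry the other. The family median was -0.41 between animals 1 and 2 of each group (series A) and -0.11 between animals 3 and 4 (series B). For Hdac4 the values were 13.35 and 13.36 in series A controls, 12.52 and 12.89 in series B controls, and 12.89, 12.89, 12.86 and 12.97 in knockouts. So the difference for Hdac4 was -0.46 in series A and 0.21 in series B. The step among controls was not particular to the Hdac family or to a fall. It was present in 7 of 8 Setd and 3 of 3 Tet genes, with median group differences of 0.08 and 0.31. In the Kdm family, with a median of 0.07, it was present in 5 of 13. Over all 69 members the series A controls were above the series B controls in 45 (65.2%) and below in 9 (13.0%), where over all genes both shares were 31.8%. Among knockouts these shares were 17.4% and 10.1% of members, beside 17.8% and 14.8% of all genes. The sources used here do not say what the series of numbers stand for. An interaction of group and series, added after these values were seen, passed in 0 of 69 members and 0.0% of genes (limma, adjusted p), and had an unadjusted p under 0.05 in 7 members (10.1%) and 11.6% of genes. The direction was the same in both series in 41 of the 69 members, beside 10857 of 17742 genes. It was the same in the 7 that changed, which were found on the difference over both series.

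**Figure D2:**
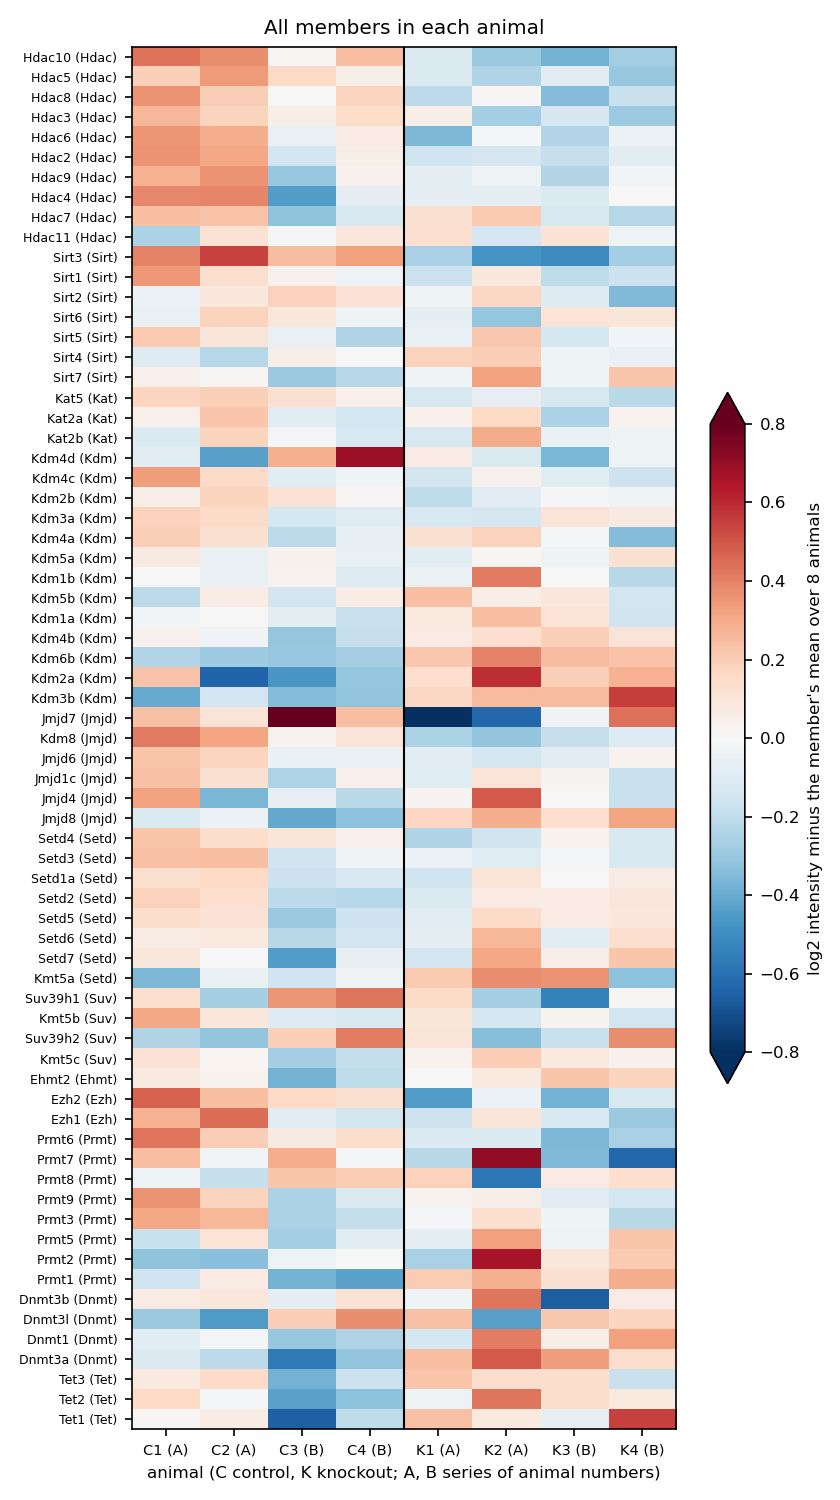
Log2 intensity of each of the 69 members (rows, by family) in each of the 8 animals (columns; C control, K knockout, A and B the series of animal numbers), minus the member's mean. Colours end at 0.8 either side of 0, which Jmjd7 passes in C3 and K1. In 45 members both series A controls lie above both series B controls, while the knockout columns show such a step in 12.

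Of 25 measured genes of the co-repressor complexes that hold deacetylases, 2 rose and 1 fell (12.0%, beside 9.28% of all genes). Their median was -0.02. Rcor2, a CoREST scaffold that joins deacetylases to the demethylase KDM1A, rose by 0.76 (adjusted p = 0.00165), and Chd4, the remodelling ATPase of the NuRD complex, rose by 0.59 (adjusted p = 0.0317), while Mbd2, a methyl-CpG reader of that complex, fell by 0.43 (adjusted p = 0.0414; all limma, log2). The list around class IIa deacetylases in muscle had a median of 0.04 over 20 measured genes. Of these, 3 rose and 0 fell (15.0%, beside 9.28% of all genes that passed, 4.28% as higher). They were the transcription factor Runx1 (0.99, adjusted p = 0.00753), the acetylcholine receptor subunit Chrna1 (0.64, adjusted p = 0.00532), and Prkd1 (0.83, adjusted p = 0.0159; limma), a kinase that phosphorylates class IIa deacetylases.

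No Kat gene passed the test, with 1 of 3 at an unadjusted p under 0.05, beside 24% of all genes. Kat5, the TIP60 acetyltransferase, gave 11.33, 11.35, 11.28 and 11.20 in controls and 11.03, 11.09, 11.03 and 10.94 in knockouts. The groups did not overlap, and the difference of -0.27 (95% interval -0.49 to -0.04; limma, adjusted p = 0.136) was -0.28 in series A and -0.25 in series B. Kat2b and Kat2a, both GCN5-family enzymes, differed by 0.04 (95% interval -0.25 to 0.33) and -0.01 (-0.30 to 0.28). Of 20 genes of other acetyltransferases and their partners, 2 rose and 1 fell (15.0%, beside 9.28% of all genes), with a median of -0.09. Msl3 (0.54, adjusted p = 0.0199) and Brpf3 (0.48, adjusted p = 0.034; both limma), subunits of MYST-type complexes, were higher. Taf1, of the general factor TFIID, was lower (-0.51, adjusted p = 0.0276; limma).

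Of the demethylases, Kdm6b and Kdm3b rose. KDM6B, or JMJD3, removes the repressive H3K27 methyl mark. Its gene gave 9.09, 9.04, 9.02 and 9.06 in controls and 9.54, 9.72, 9.57 and 9.55 in knockouts. The controls were nearly alike, and all knockouts lay well above them. Kdm6b was 0.54 ± 0.10 (SE) higher, 1.46-fold (limma, adjusted p = 0.00777), with 0.57 in series A and 0.52 in series B. KDM3B removes methyl groups from H3K9. Kdm3b gave 9.65, 9.90, 9.71 and 9.74 in controls and 10.22, 10.31, 10.31 and 10.61 in knockouts, where animal 4 was the highest. It was 0.61 ± 0.12 higher, 1.53-fold (adjusted p = 0.0102, limma), with 0.49 in series A and 0.73 in series B. Both calls held in each fit without 1 animal.

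The rest of the Kdm family did not follow as a group, and Kdm6a, the relative of Kdm6b, is left out by the rule. Kdm3a, the closest relative of Kdm3b, differed by -0.05 (95% interval -0.32 to 0.23), with -0.30 in series A and 0.21 in series B. The other Kdm genes lay between -0.23 (Kdm4d, dim in both groups) and 0.60, and the median of the 13 was 0.07. The upper end was Kdm2a, an H3K36 demethylase, at 8.86, 7.99, 8.17 and 8.32 in controls and 8.77, 9.22, 8.82 and 8.91 in knockouts. Control animal 1 lay within the knockout range, and the adjusted p was 0.0702. Kdm1a, Kdm1b, Kdm4a, Kdm4b, Kdm4c, Kdm5a and Kdm5b gave 0.14, 0.07, -0.02, 0.24, -0.19, 0.01 and 0.11, and Kdm2b gave -0.17 in 1 row and 0.01 in its other. Kdm7a, which the symbol rule leaves out, was lower by 0.50 (adjusted p = 0.0383, limma).

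Jmjd8 rose within the Jmjd family. Its product is a JmjC-domain protein of the endoplasmic reticulum rather than a known histone demethylase. Controls gave 11.23, 11.30, 10.94 and 11.02 and knockouts 11.51, 11.64, 11.48 and 11.66. The groups did not overlap, and the difference was 0.45 ± 0.12 (SE), 1.37-fold higher (limma, adjusted p = 0.0383). That call was lost in 7 of 8 fits without 1 animal, all but the one without control animal 2 (adjusted p 0.0607 to 0.102), and the difference was 0.31 in series A and 0.59 in series B.

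The other 5 Jmjd genes ran from -0.77 to 0.17. Kdm8, a JmjC hydroxylase, gave 12.32, 12.22, 11.93 and 12.01 in controls and 11.65, 11.59, 11.72 and 11.80 in knockouts. The groups did not overlap, and the difference of -0.43 (95% interval -0.70 to -0.16) had an adjusted p of 0.0528 (limma). Jmjd7 gave the most scattered values of any member, 8.02, 7.89, 8.75 and 8.03 in controls and 6.47, 7.16, 7.76 and 8.23 in knockouts. Knockout animal 4 lay above 3 of the controls, and the interval of the difference, -1.49 to -0.04, was the widest of the 69. Jmjd6, Jmjd1c and Jmjd4 gave -0.15, -0.07 and 0.17. Among 11 other demethylases and JmjC proteins 0 passed the test (limma). In 2 the unadjusted p was under 0.05, beside 24% of all genes.

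Ezh2, the catalytic subunit of Polycomb repressive complex PRC2 that methylates H3K27, fell. It gave 9.93, 9.70, 9.62 and 9.58 in controls and 9.01, 9.41, 9.08 and 9.33 in knockouts. All knockouts lay below all controls, with knockout animal 2 and control animal 4 the nearest pair. The difference was -0.50 ± 0.13 (SE), 1.41-fold lower (limma, adjusted p = 0.0405). It was lost in 7 of 8 fits without 1 animal, all but the one without knockout animal 2 (adjusted p 0.0569 to 0.121). Ezh1, the paralog common in resting tissue, gave -0.24 (95% interval -0.58 to 0.09) in its brighter row and -0.24 in the other. Of 10 PRC2 partners 0 passed (limma), and the median was 0.11. An unadjusted p under 0.05 was found in 3, all higher, beside 24% of all genes in either direction.

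**Figure D3:**
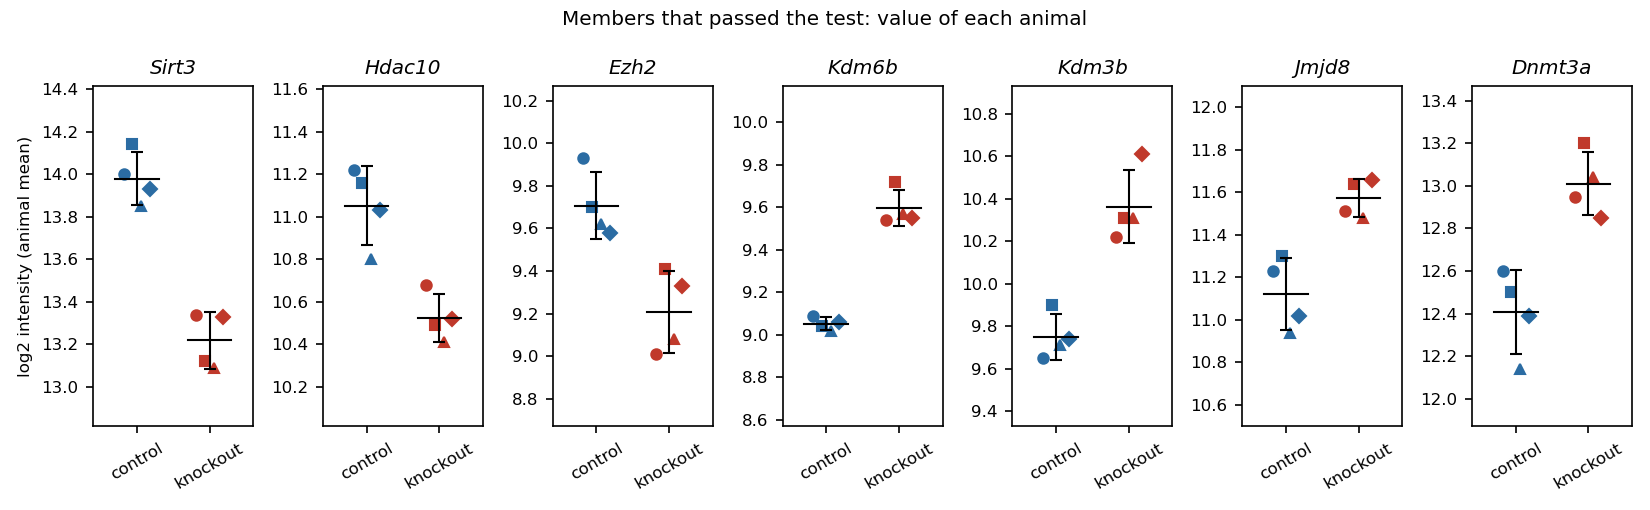
Log2 intensity of each animal (circle, square, triangle and diamond for animals 1 to 4; blue control, red knockout) for the 7 members that passed the test. Lines and bars are group means and SD (n = 4 animals). Every axis spans the same length on the log2 scale but at a different level; in each panel the groups are separate, with the widest difference for Sirt3 (-0.76).

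No other lysine methyltransferase of the families passed the test. In the Setd family, of 8 genes 0 passed (limma), and the median was 0.08. An unadjusted p under 0.05 was found in 1 (12.5%, beside 24% of all genes). That gene was Setd4, at 8.44, 8.36, 8.32 and 8.26 in controls and 7.98, 8.06, 8.25 and 8.10 in knockouts. Knockout animal 3 lay just below the lowest control, and the difference was -0.25 (95% interval -0.49 to -0.01; adjusted p = 0.196). Kmt5a, which places the single methyl group on H4K20, gave 0.31 (-0.06 to 0.67), with knockout animal 4 (14.35) inside the controls and the others above. Setd2, which trimethylates H3K36, gave 0.06, and Setd7 and Setd3, of which the latter methylates actin, 0.22 and -0.15. Setd1a, Setd5 and Setd6 lay between 0.00 and 0.12.

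In the Suv family 0 of 4 genes passed (limma), and 0 had an unadjusted p under 0.05, beside 24% of all genes. Suv39h1 and Suv39h2, which trimethylate H3K9 at pericentric heterochromatin, were dim in both groups, so their differences of -0.32 and -0.02 bound little. Kmt5b and Kmt5c, which extend methylation at H4K20, gave -0.09 and 0.17 in their brightest rows. The dimmer rows of Kmt5b gave 0.26 and 0.39, opposite in sign to the brightest, and the dim row of Kmt5c gave -0.02. Ehmt2, or G9a, which dimethylates H3K9, gave 12.10, 12.06, 11.65 and 11.83 in controls and 12.03, 12.11, 12.25 and 12.21 in knockouts. All knockouts exceeded both series B controls, and knockout animal 1 lay below both series A controls. The difference was -0.01 in series A, 0.49 in series B and 0.24 in all (adjusted p = 0.284, limma). Among 17 genes of other protein methyltransferases and their partners 0 passed (limma), and the median was -0.06. In 2 the unadjusted p was under 0.05, both lower, beside 24% of all genes. They were Setdb2 (-0.36) and Carm1 (-0.45), an arginine methyltransferase without a Prmt symbol.

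In the Prmt family 0 of 8 genes passed the test (limma). An unadjusted p under 0.05 was found in 2 (25.0%, beside 24% of all genes), in opposite directions. Prmt1, the enzyme behind most asymmetric dimethylarginine, gave 14.64, 14.86, 14.42 and 14.37 in controls and 15.00, 15.08, 14.92 and 15.09 in knockouts. The groups did not overlap, and the difference was 0.45 (95% interval 0.16 to 0.74; adjusted p = 0.055). Prmt6, which methylates an arginine of the histone H3 tail, gave 9.42, 9.19, 9.06 and 9.13 in controls and 8.88, 8.88, 8.63 and 8.73 in knockouts. The groups again did not overlap, and the difference was -0.42 (-0.69 to -0.15; adjusted p = 0.0534), nearly the same in series A (-0.43) and series B (-0.41). Prmt5, the main enzyme of symmetric dimethylarginine, gave 0.22 (-0.08 to 0.52). Prmt2, Prmt3, Prmt7, Prmt8 and Prmt9 gave 0.35, -0.07, -0.25, -0.10 and -0.08. Prmt1 passed under 10 alternatives and Prmt6 under 9.

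Dnmt3a, a DNA methyltransferase that acts on unmethylated sites, rose. It gave 12.60, 12.50, 12.14 and 12.39 in controls and 12.95, 13.20, 13.04 and 12.85 in knockouts. All knockouts lay above all controls, and the difference was 0.60 ± 0.13 (SE), 1.52-fold higher (limma, adjusted p = 0.0175). It was 0.52 in series A and 0.68 in series B, and without knockout animal 3 the adjusted p was 0.0526. Dnmt1, which copies methylation after replication, gave 0.32 (95% interval 0.00 to 0.63; adjusted p = 0.206), with knockout animal 1 inside the control range. Dnmt3b and the inactive relative Dnmt3l gave -0.10 and 0.09.

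All 3 Tet genes gave positive differences, and 0 passed the test (limma). An unadjusted p under 0.05 was found in 1, beside 24% of all genes. Tet1 gave 7.79, 7.84, 7.13 and 7.58 in controls and 8.02, 7.86, 7.72 and 8.33 in knockouts. The groups overlapped through knockout animal 3, the difference was 0.40 (95% interval 0.00 to 0.80; adjusted p = 0.206), and the dimmer rows gave -0.02 and -0.16. Tet2 gave 11.68, 11.51, 11.09 and 11.19 in controls and 11.48, 11.95, 11.66 and 11.60 in knockouts, with series A controls again above series B controls. Its difference was 0.31 (-0.04 to 0.65; adjusted p = 0.266), and Tet3 gave 0.16 in its brightest row and -0.11 and 0.11 in the others. Of 16 readers and partners of DNA methylation 2 rose and 2 fell (25.0%, beside 9.28% of all genes), with a median of -0.20. Mbd2, given above, was among the falls. Uhrf1, which recruits DNMT1, was at 6.55 in controls, below the dim level, and at 7.61 in knockouts (adjusted p = 0.00758). Gadd45b, a stress-response gene, rose by 0.82 (adjusted p = 0.0383), and its relative Gadd45g fell by 1.99 (adjusted p = 0.029; limma).

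The measured genes on either side of the 7 changed members, in RefSeq gene order, were also read, chosen after the members' values were seen. Of 14 such neighbours 3 passed the test, all higher, beside 9.28% of all genes that passed (4.28% higher). They were Dtnb (0.75 ± 0.16, adjusted p = 0.013) and Pomc (1.29 ± 0.13, adjusted p = 0.000211), on the 2 sides of Dnmt3a, and Reep2 (0.82 ± 0.16, adjusted p = 0.00854, all limma), next to Kdm3b. Thus Dnmt3a and both its neighbours rose, and whether they changed as a region was not tested. The neighbours of Sirt3, Ezh2, Hdac10, Jmjd8 and Kdm6b did not pass, with differences from -0.35 to 0.19.

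Whole muscle holds other cells, and in such samples fewer cells of a type and less RNA per cell cannot be told apart. Markers of vessels were lower in the knockout beside the members that fell. Over all genes 5.01% passed as lower, and 10588 of 17742 differences were negative. Of 12 endothelial markers 2 fell and 0 rose, all 12 differences were negative with a median of -0.43, and their summed intensity was 107000 to 139000 in controls and 69500 to 110000 in knockouts. Of 8 smooth muscle and pericyte markers 3 fell, with a median of -0.30 and sums of 145000 to 174000 and 108000 to 133000. Schwann cell markers had 2 of 7 lower (median -0.45; 23700 to 33100 and 18500 to 24000), and red cell markers 1 of 2 (median -0.85; 2810 to 3920 and 1190 to 2590). Macrophage markers had 1 of 11 lower and a median of 0.43 (17700 to 39100 and 23000 to 52400), satellite cell markers 1 of 7 lower and -0.23 (17800 to 20200 and 16300 to 19300). Fibroblast markers had 0 of 10 called and a median of 0.06 (157000 to 233000 and 140000 to 260000). An unadjusted p under 0.05 was found in 4 of them, beside 24% of all genes (limma). Fibre markers had 0 of 8 called, 0 at an unadjusted p under 0.05 and a median of -0.16 (limma). All 8 fibre differences were negative, from -0.35 to -0.11. Of these markers 2 were dim in both groups, 1 of smooth muscle and 1 of fibroblasts. Only 2 of 7 listed red cell markers were measured. For Schwann cells and satellite cells 7 of 10 each were measured, and for smooth muscle and pericytes 8 of 10. The part of these cells in the differences of Sirt3, Hdac10, Ezh2 and the other Hdac genes was not tested. Nor was it for Dnmt3a, Kdm6b, Kdm3b and Jmjd8, which rose.

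**Figure D4:**
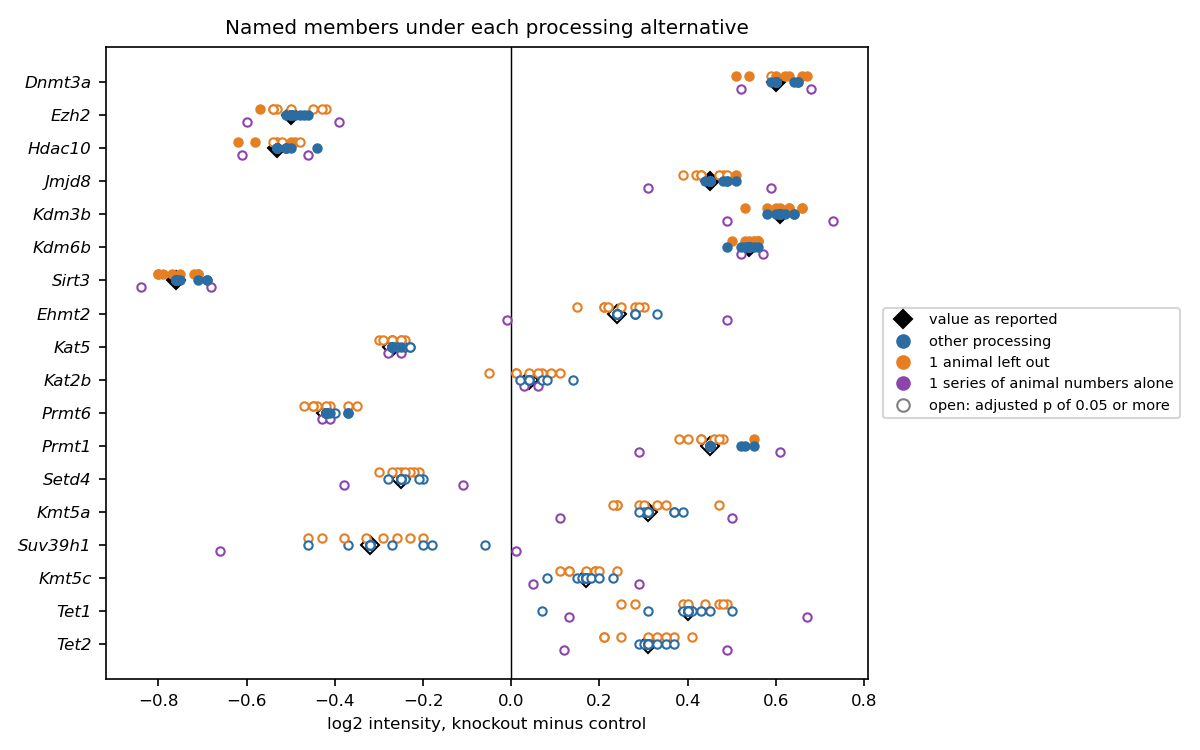
Difference in log2 intensity (knockout minus control, horizontal axis) of the 18 named members under the reported analysis (black) and each alternative (blue for processing, orange for 1 animal left out, purple for 1 series of animal numbers alone). Filled points have a limma adjusted p under 0.05. The 7 members that passed keep their sign at every point, while their purple points, from 2 against 2 animals, are open.

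With every probe row as a feature, 5 of 83 member rows passed beside 7.0% of all rows, and Ezh2 (adjusted p = 0.0528) and Jmjd8 (0.0512; limma) no longer did. The 9 members with several rows held 23 rows, and none of the 7 that changed was among them, so each of those rests on 1 row. Across members the median half-width of the 95% interval was 0.29 on the log2 scale, and the largest 0.73.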

How the data were processed

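The deposited values are linear probe intensities, 1 per array, which the authors had scaled to a common median of 626. The sources used here give no scanner, background correction or scaling method. The label field names Cy3 and the labelling protocol Cy5. Intensities below the 5th percentile of all values (38.8) were set to it, log2 was taken, and the 3 hybridisations of an animal were averaged. Symbols were updated through a RefSeq gene table (GRCm38.p6): 18213 rows matched a symbol, 2126 a synonym and 38 kept their name, and 6046 had none. The brightest row stood for a gene. The 8 animal means were fitted by group in limma 3.58.1 under R 4.3.3 (lmFit and eBayes). Benjamini-Hochberg adjustment was over 17742 genes, with a threshold of 0.05. The fit was also run on simulated independent animals without a step between number series, so that run does not bear on such a step. P-values weigh the difference between groups against the spread between animals of a group, which limma moderates over all genes. Where animals of a group differ by number series, that difference is part of the spread, as the reported fit has no term for it. Folds were taken from differences of log2 means.

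Members and gene lists were chosen with earlier results of these data known. The named members are those that passed, the 2 of smallest p in each family without one, Hira, and up to 3 members of each other list that passed. Other members, neighbours and list genes were named with their values in view. Alternatives changed the normalization (quantile or cyclic loess), the low end (an added constant, a higher floor or no dim rows), the rows of a gene (their mean, or each row alone), the hybridisations (their median, or a random block for the animal, also with a replicate block), the variances (robust with a trend, or array weights) and the animals (each left out, and the number series as a block or singly). The array holds no depth, so the number of animals limits precision.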

Additional observations from a re-analysis of the deposited data

How the results depend on the processing

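Counts are members higher and lower in knockout muscle (4 and 3 as reported, limma), then all genes called. They were 6, 8 and 2570 after quantile normalization, and 6, 6 and 2463 after cyclic loess. They were 5, 6 and 2035 without dim rows, 5, 5 and 1884 with an added constant, 4, 7 and 1785 with a higher floor, and 6, 6 and 2048 with robust variances. In these 6 settings 14.5% to 20.3% of members passed, beside 10.1% to 14.5% of genes. Array weights gave 7, 6 and 3609 (18.8% of members beside 20.3% of genes). The number series as a block gave 5, 5 and 1923 (14.5% beside 10.8%). The animal as a random block gave 6, 11 and 3149 (24.6% beside 17.7%). Adding the hybridisation number as a replicate block gave 6, 9 and 2978 (21.7% beside 16.8%). Equal hybridisation numbers deviated together at a median correlation of 0.04 (range -0.63 to 0.75), so they were not taken as pairs. Series A alone gave 0, 0 and 62, and series B alone 0, 0 and 508, from 2 against 2 animals. Without 1 animal the counts ran from 2 to 5, from 1 to 3, and from 945 to 1693. The share of members was then 4.35% to 10.1%, beside 5.33% to 9.54% of genes. It was below that of genes without control animal 4 or knockout animal 1, 3 or 4, and above it without each of the others.

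Sirt3, Kdm6b and Kdm3b kept their call in every alternative except the single series. Dnmt3a also lost it without knockout animal 3 (adjusted p = 0.0526, limma). Of 23 alternatives, Ezh2 lost its call in 11, Jmjd8 in 10 and Hdac10 in 7. For Ezh2 these included the median of hybridisations (adjusted p = 0.0558, limma). Other members passed under some alternatives, such as Kdm8 under 11, Hdac5 under 9 and Kat5 under 4. The sign turned for Ehmt2 (-0.01) and Suv39h1 (0.01) in series A alone, and for Kat2b without knockout animal 2, where fits without 1 animal ran from -0.05 to 0.11. The cause was not tested.

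Dim rows limit Suv39h1, Suv39h2 and Kdm4d. Of 36 groups of 4 animals checked, 0 had an animal standing apart by Dixon's test.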
